A study of Bos taurus with 16 samples.

Results

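*HMGCS1* encodes the cytosolic enzyme that makes HMG-CoA, an early intermediate of cholesterol synthesis. Livers with more and with less *HMGCS1* mRNA were compared in 16 multiparous female Holstein cows at week 1 postpartum, with 1 array of liver biopsy RNA per cow. The labels give 8 cows as FGF21 high and 8 as FGF21 low; the study took these animals from a larger herd as those with the highest and the lowest hepatic *FGF21* expression among cows that had needed no medical treatment. All cows received the same total mixed ration, and neither group was given an agent or carried an altered allele. The classes were chosen by the measured *HMGCS1* signal: within each group the 4 cows with the highest value were called *HMGCS1*-higher and the other 4 *HMGCS1*-lower, which gave 8 livers against 8 and used all 16 cows. They therefore come from a value on these same arrays and not from a treatment, and the signals of *HMGCS1* itself are given as a description only.

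Cholesterol is built from acetyl-CoA, first through the mevalonate pathway to squalene and then through lanosterol to cholesterol. When sterols run low in the endoplasmic reticulum, the transcription factor SREBP2 is released and raises the transcription of most genes of both stretches, while SREBP1 acts mainly on genes of fatty acid synthesis. In ruminants the liver contributes little to fatty acid synthesis, which takes place mostly in adipose tissue and the lactating mammary gland.

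*HMGCS1* lies on chromosome 20 from 31451299 to 31477033 on the forward strand by the array annotation, in a genome build not given in the sources used here. It was measured by 1 transcript cluster of 27 probes, with a mean signal at percentile 98.7 of all clusters. All signals here are log2 values after the authors' normalization. In the FGF21 high group the *HMGCS1*-higher cows had 11.41, 11.33, 11.10 and 11.02, and the *HMGCS1*-lower cows had 10.93, 10.65, 10.60 and 10.53. In the FGF21 low group the corresponding signals were 11.32, 11.20, 11.19 and 10.75 against 10.59, 10.36, 10.14 and 9.85. The classes were thus 1.45-fold apart among FGF21 high cows and 1.84-fold apart among FGF21 low cows, and the lowest value was that of FGF21 low replicate 2. The cows on either side of the division were close, with a gap of 0.09 among FGF21 high cows and 0.16 among FGF21 low cows.

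**Figure D1:**
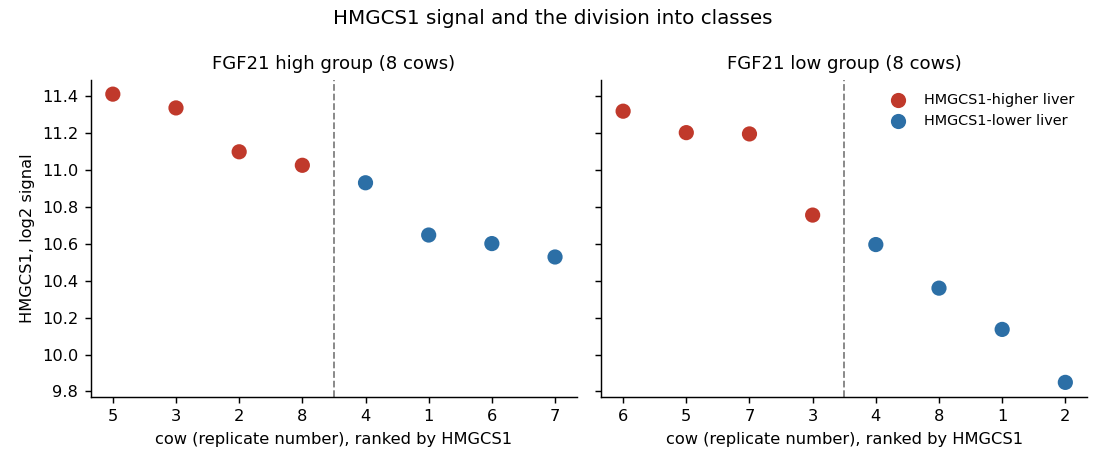
*HMGCS1* log2 signal of each cow (y axis), ranked within the FGF21 high group (left) and the FGF21 low group (right), with the replicate number on the x axis and a dashed line between the classes. The 4 red points of each panel are the *HMGCS1*-higher livers; signals ran from 11.41 down to 10.53 on the left and from 11.32 down to 9.85 on the right.

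The arrays had median signals alike, and the 10 hepatocyte markers, among them *ALB* and *HNF4A*, had a mean log2 signal of 11.99 to 12.12 in the *HMGCS1*-higher and 11.95 to 12.18 in the *HMGCS1*-lower livers, so hepatocyte transcripts were strong in every cow. Of these markers 0 passed p under 0.05 in either direction, against 3.65 percent of all clusters. Array quality was uneven between the classes. The weights that limma estimates from the scatter of each array, where 1 is average and lower is noisier, ran from 0.924 to 1.49 (median 1.17) in the *HMGCS1*-higher and from 0.483 to 1.446 (median 0.812) in the *HMGCS1*-lower livers, and the 3 lowest weights were all in the *HMGCS1*-lower class. With the weights in the fit, 14 of 21 sterol synthesis genes described next were higher at p under 0.05, in place of 15. Over all 20420 clusters, 935 had p under 0.05 in either direction in that fit, in place of 746. The part of array quality in the results below was not tested, and these counts do not measure it.

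Across 20420 transcript clusters other than *HMGCS1*, genes of sterol synthesis stood at the top of the list. Of the 21 measured genes of the pathway beyond *HMGCS1*, 15 were higher in the *HMGCS1*-higher livers at a limma p under 0.05 without adjustment and 0 were lower, whereas 1.27 percent of all clusters were higher and 2.38 percent were lower by the same rule. All 21 had a positive difference, which held for 43.9 percent of all clusters. Their median log2 difference was 0.28 against -0.01 over all clusters, and the 15 genes lay on 13 chromosomes. Among the 10 clusters with the smallest p, 6 were sterol synthesis genes, and among the first 50 there were 9. After Benjamini-Hochberg adjustment over all clusters, however, limma called 0 clusters (0 percent), with 746 clusters (3.65 percent) under 0.05 without adjustment. Chance gives about 5 percent at this threshold, so all clusters together held no excess of small p-values. The lowest adjusted p was 0.185, for *CYP51A1*, and ran from 0.0247 without FGF21 high replicate 4 to 0.655 without FGF21 low replicate 6 when 1 cow was left out. The methods' t-test called 1 cluster (0.0049 percent) after adjustment, *IDI1*. In a biopsy, more cells of a type and more RNA per cell cannot be told apart.

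Of the mevalonate pathway 7 of 8 measured genes were higher at p under 0.05, with a median log2 difference of 0.28. *IDI1*, which isomerises isopentenyl diphosphate, separated the classes without overlap. Its signals were 9.95 to 10.19 (median 10.05) in the *HMGCS1*-higher and 9.70 to 9.84 (median 9.78) in the *HMGCS1*-lower livers. Every *HMGCS1*-higher cow lay above every *HMGCS1*-lower cow, and the log2 difference was 0.28 with a standard error of 0.06. The exact two-sided permutation p within the FGF21 groups was 0.000408, the smallest that the 4900 assignments allow, beside a limma adjusted p of 0.437.

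*FDPS*, the farnesyl diphosphate synthase, ran from 8.98 to 9.73 (median 9.48) in the *HMGCS1*-higher and from 8.68 to 9.21 (median 9.05) in the *HMGCS1*-lower livers. All 8 *HMGCS1*-higher cows were above the *HMGCS1*-lower mean of their own FGF21 group, and the log2 difference was 0.42 (SE 0.09, exact permutation p = 0.00122). *FDFT1*, which joins farnesyl groups to squalene, had a log2 difference of 0.43 over all cows, made up of 0.15 among FGF21 high and 0.70 among FGF21 low cows. The term for a class difference that depends on the FGF21 group had a limma p of 0.0141 for *FDFT1*, which did not pass adjustment (adjusted p = 0.906). Other genes of this stretch were *ACAT2*, the acetoacetyl-CoA thiolase (0.28), the mevalonate kinase *MVK* (0.23) and the decarboxylase *MVD* (0.19), all with p under 0.05, and the phosphomevalonate kinase *PMVK* (0.10), which did not reach it.

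From squalene to cholesterol 8 of 13 measured genes were higher at p under 0.05, with a median log2 difference of 0.19. *CYP51A1*, which removes the 14-alpha methyl group of lanosterol, had the smallest p of all clusters. Its signals were 10.22 to 10.63 (median 10.44) in the *HMGCS1*-higher and 9.77 to 10.27 (median 9.92) in the *HMGCS1*-lower livers. A single *HMGCS1*-lower cow, FGF21 high replicate 4 next to the division, reached into the range of the higher class. The log2 difference was 0.48 (SE 0.08, exact permutation p = 0.000816).

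*SQLE*, the squalene epoxidase and another control point of the pathway, had signals of 10.003 to 10.67 (median 10.27) in the *HMGCS1*-higher and 9.12 to 10.13 (median 9.81) in the *HMGCS1*-lower livers. The lowest signal of all, 9.12, was that of FGF21 low replicate 2, which also had the lowest *HMGCS1*. The log2 difference was 0.56 with a standard error of 0.12 (exact permutation p = 0.000816). *MSMO1*, the methyl sterol oxidase that acts after CYP51A1, was 11.31 to 11.60 (median 11.46) against 10.97 to 11.29 (median 11.09) and so did not overlap between the classes. Its log2 difference of 0.33 (SE 0.07) was nearly the same in the FGF21 high (0.33) and the FGF21 low (0.34) group.

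*DHCR7*, which makes cholesterol from 7-dehydrocholesterol, had a log2 difference of 0.39 (SE 0.10, exact permutation p = 0.00286). The lanosterol synthase *LSS* (0.28), the sterol dehydrogenase *NSDHL* (0.19), the ketoreductase *HSD17B7* (0.31) and the desaturase *SC5D* (0.13) also had p under 0.05. Genes of this stretch that did not reach it included *TM7SF2* (log2 difference 0.19) and *LBR* (0.02), which encode the sterol C14 reductases, the scaffold *ERG28* (0.12) and the isomerase *EBP* (0.14). Over both stretches 11 of 21 genes were also above a 1.2-fold change, as were 0.475 percent of all clusters in this direction. The same 15 genes had an exact permutation p under 0.05. This test used the same classes and signals as limma, so it is no separate support. It was run on listed and named genes only, so no share over all clusters can be set beside it.

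**Figure D2:**
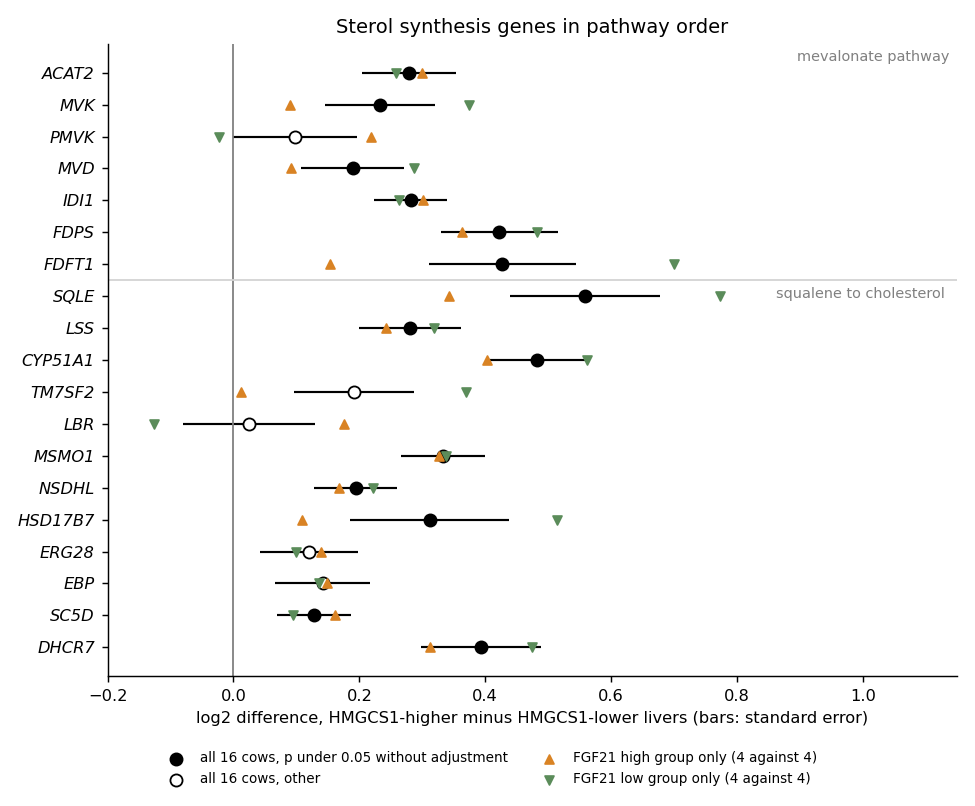
Log2 difference between *HMGCS1*-higher and *HMGCS1*-lower livers (x axis) of the named sterol synthesis genes in pathway order (y axis), with the standard error as a bar. Black discs are the genes with p under 0.05 without adjustment, white discs the others, and triangles the differences within each FGF21 group; every disc lies right of 0, from 0.02 for *LBR* to 0.56 for *SQLE*.

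No overlap between the classes within either FGF21 group was found for 4 clusters in the higher direction (0.0196 percent) and 4 in the lower direction (0.0196 percent). *MSMO1* and *IDI1* were among the first 4, with the microRNA transcript *MIR2329-1* and *YME1L1*, a protease of the inner mitochondrial membrane. The 4 lower ones were *LDHC*, *SLC35G2*, *ECSIT* and a cluster named *FAM65A*. *YME1L1* and these 4 were named after their values were seen. *LDHC* (3.44 to 4.20 in the *HMGCS1*-higher livers) and *SLC35G2* (3.03 to 3.49 in the *HMGCS1*-lower livers) had low signals, against a median of 6.28 over all clusters. With 4900 possible assignments and 20420 clusters, random classes would also give a few such clusters in each direction.

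The direction was shared by both FGF21 groups. In the FGF21 high group all 21 sterol synthesis genes had a positive difference (48.7 percent of all clusters), and in the FGF21 low group 19 of 21 did (42.1 percent); the exceptions were *PMVK* (-0.02) and *LBR* (-0.13). Median differences in the FGF21 high and FGF21 low group were 0.26 and 0.33 for the mevalonate pathway and 0.17 and 0.32 for the genes from squalene to cholesterol. At p under 0.05 without adjustment, 6 of 21 were higher within the FGF21 high group (2.12 percent of all clusters) and 14 of 21 within the FGF21 low group (1.74 percent), where *HMGCS1* was also spread more widely. Over all clusters the dependence of the class difference on the FGF21 group passed adjustment for 0 clusters (limma, 0 percent), with 1006 (4.93 percent) at p under 0.05 without it.

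Leaving out the cows nearest the division changed the number of adjusted calls. With the top 3 against the bottom 3 cows of each group, 4 clusters (0.0196 percent) had a limma adjusted p under 0.05 and all were higher, namely *ACSS2*, *FASN* and *FADS1* of fatty acid synthesis and *CYP51A1*. With the *HMGCS1* signal itself as a continuous term beside the FGF21 group, 6 clusters passed (0.0294 percent). Among them were *SQLE* (limma adjusted p = 0.000227), *CYP51A1* (0.0037), *FASN* (0.00481), *DHCR7* (0.0163) and *FDFT1* (0.0168). Per unit of log2 *HMGCS1* signal, *FASN* was higher by 1.02 and *SQLE* by 0.83. In this fit 15 of 21 sterol synthesis genes were higher at p under 0.05 without adjustment, as were 1.61 percent of all clusters.

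Fatty acid synthesis was the other list with many genes past the same rule. Of its 21 measured genes, 10 were higher at p under 0.05 (1.27 percent of all clusters) and 0 lower (2.38 percent), 15 had a positive difference (43.9 percent), and the median log2 difference was 0.22. *SCD*, the stearoyl-CoA desaturase, had signals of 9.57 to 10.83 (median 10.21) in the *HMGCS1*-higher and 8.51 to 9.97 (median 9.20) in the *HMGCS1*-lower livers. The classes overlapped between 9.57 and 9.97, while all 8 *HMGCS1*-higher cows were above the lower mean of their own group. The log2 difference was 0.89, a fold change of 1.85 (SE 0.21, exact permutation p = 0.0049).

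*FASN*, the fatty acid synthase, had a lower signal than many sterol genes, with 6.99 to 7.92 (median 7.58) against 6.29 to 7.91 (median 6.85). FGF21 high replicate 4, an *HMGCS1*-lower cow, reached 7.91, about the highest value of the other class. The log2 difference was 0.62 (SE 0.18, exact permutation p = 0.0131). The enzymes that supply acetyl-CoA for it showed the same direction, with 0.46 for the citrate lyase *ACLY* and 0.74 for the acetyl-CoA synthetase *ACSS2*, the enzyme that activates acetate.

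Further genes on this list with p under 0.05 were named after their values were seen. They were the desaturases *FADS1* (0.66) and *FADS2* (0.81), the elongases *ELOVL6* (0.42) and *ELOVL5* (0.33), the acyl-CoA synthetase *ACSL3* (0.22) and *THRSP* (0.57), which is induced with lipogenesis. Of these, *ELOVL5* (exact permutation p = 0.0669) and *THRSP* (0.082) had a permutation p above 0.05. The acetyl-CoA carboxylase *ACACA*, which provides malonyl-CoA, had a log2 difference of 0.37 (exact permutation p = 0.0918). With the 3 arrays of lowest weight left out, 6 of these 21 genes were higher and 1 was lower at p under 0.05, and 13 of the 21 sterol synthesis genes were higher. In that fit 4.98 percent of all clusters were higher and 4.44 percent lower.

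**Figure D3:**
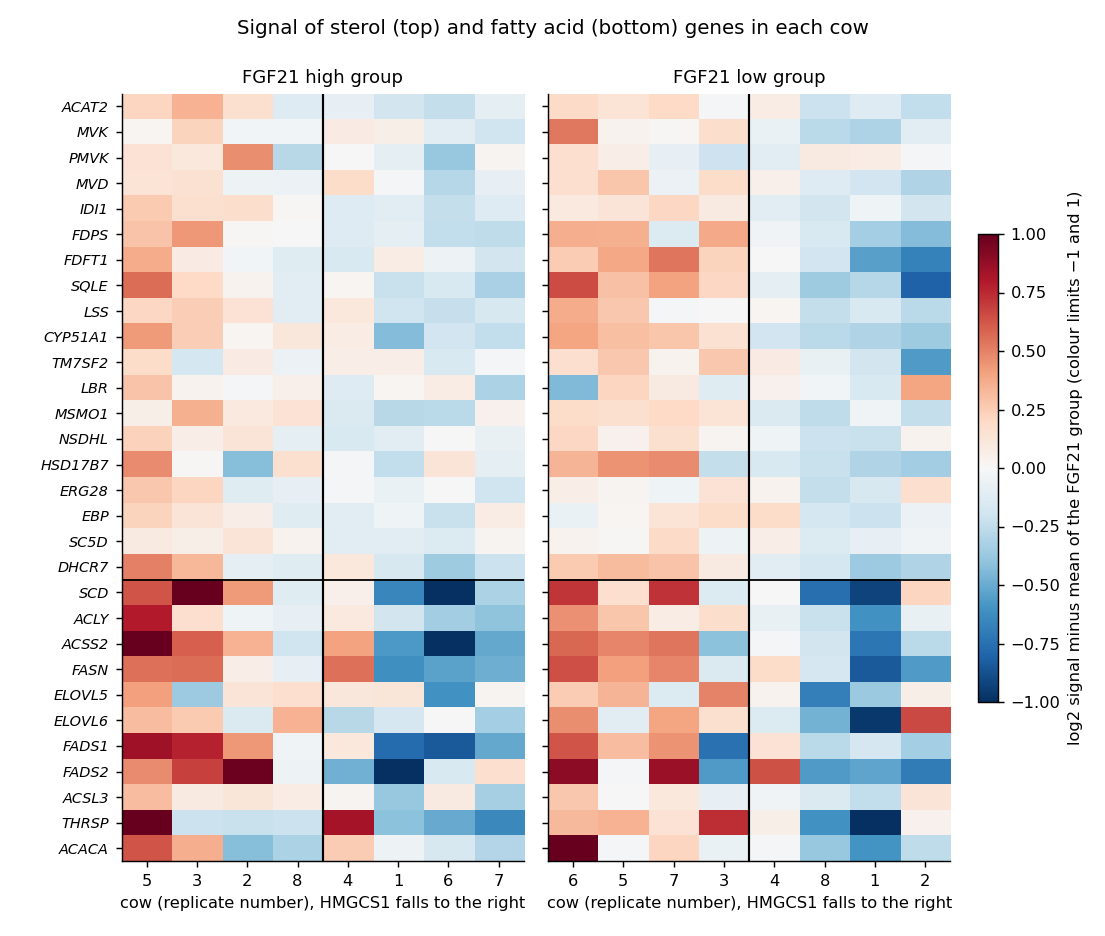
Log2 signal of each cow minus the mean of its FGF21 group (colour, drawn from -1 to 1 with larger values at the end colours) for sterol synthesis genes above the horizontal line and fatty acid genes below it. Columns are cows by replicate number, ordered by *HMGCS1* from high to low, with a vertical line between the classes; red prevails left of this line and blue right of it, with FGF21 high replicate 4 showing red for *FASN* and *THRSP*.

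Among regulators and partners of the pathway few or no genes passed the same rule. Of 13 genes of sterol sensing 0 had p under 0.05 (3.65 percent of all clusters), with a median difference of 0.02. *INSIG1*, which retains the SREBP complex in the endoplasmic reticulum, had a log2 difference of 0.38 with a standard error of 0.20 (exact permutation p = 0.141), *SREBF2* 0.08 and *SREBF1* 0.03. Without FGF21 low replicate 6 the difference of *INSIG1* was 0.23, and without FGF21 high replicate 3 it was 0.25. Of 17 genes of sterol uptake and trafficking 1 was higher (1.27 percent of all clusters), *TMEM97* (0.19), a protein of lysosomal cholesterol handling. The 17 include *ACAT1*, an acetyl-CoA acetyltransferase that is also on the ketone body list. The genes *SREBF1* and *ACACA* were named after their values were seen.

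In other branches of lipid metabolism at most 1 gene per list passed the same rule. Over all clusters 1.27 percent were higher and 2.38 percent lower, and in lists this short 0 or 1 gene is near these shares. At p under 0.05, 0 of 11 genes of the isoprenoid branches, 0 of 10 LXR targets and 0 of 8 genes of NADPH supply differed in either direction. The same held for 0 of 19 genes of bile acid synthesis and transport and 0 of 16 apolipoprotein and VLDL genes. The list of LXR targets also holds the LXR genes themselves, *NR1H3* and *NR1H2*. Of 9 genes of ketone body synthesis 1 was higher, the monocarboxylate transporter *SLC16A1* (0.21). Of 21 genes of fatty acid oxidation 0 were higher and 1 was lower, *CYP4A22* (-0.23). Over all cows the medians of ketone body synthesis (0.05), fatty acid oxidation (-0.01) and the LXR targets (-0.09) combined opposite directions in the FGF21 groups. Over all clusters 48.7 percent were positive in the FGF21 high and 42.1 percent in the FGF21 low group. In the same order, 1 and 8 of 9 ketone body genes had a positive difference (medians -0.08 and 0.18). The counts were 4 and 19 of 21 for fatty acid oxidation (-0.14 and 0.10) and 8 and 2 of 10 for the LXR targets (0.08 and -0.15). No single cluster passed adjustment for this dependence.

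**Figure D4:**
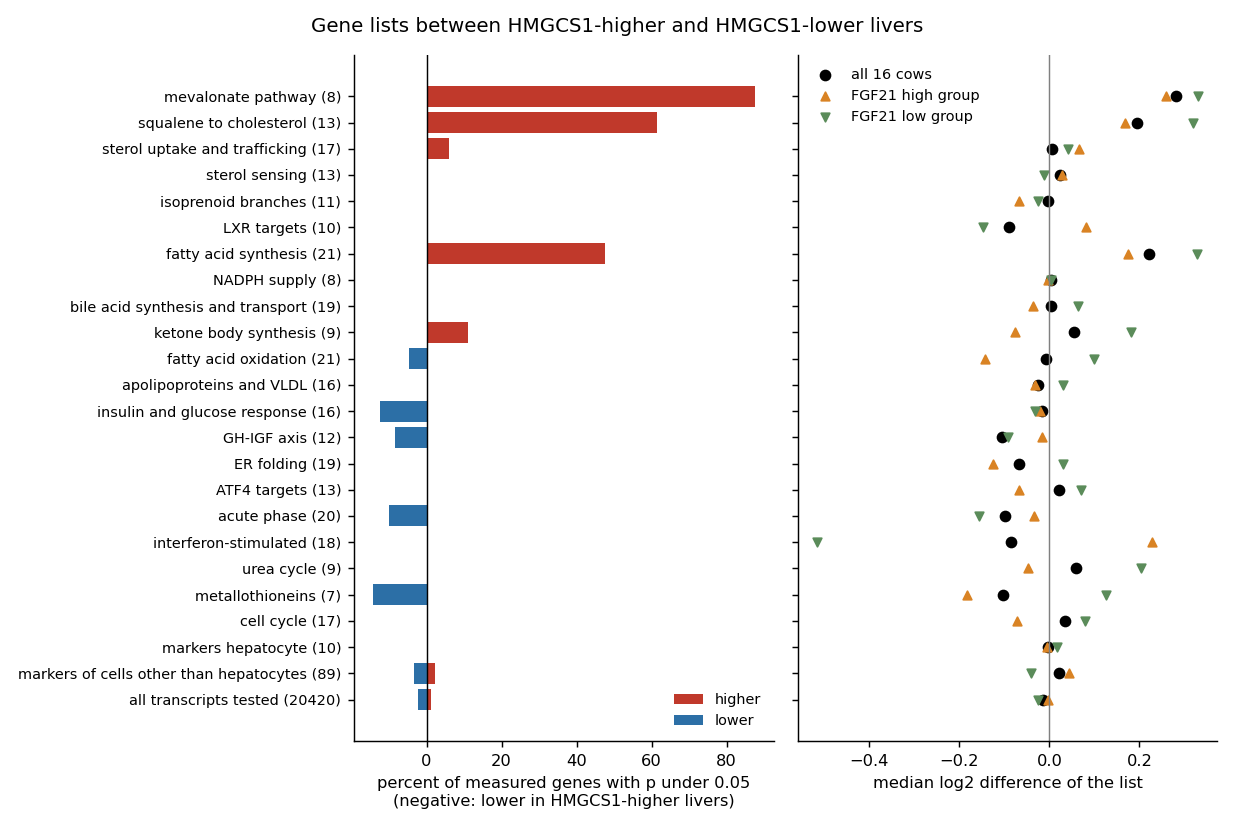
Left, percent of the measured genes of each list (number in brackets) with p under 0.05 without adjustment, higher (red, positive) or lower (blue, drawn as negative) in the *HMGCS1*-higher livers; right, median log2 difference of each list over all 16 cows and within each FGF21 group. The mevalonate pathway, squalene to cholesterol and fatty acid synthesis have the longest red bars, and the interferon-stimulated genes have medians of opposite sign in the FGF21 high and FGF21 low groups.

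Genes of hormone response and inflammation gave few differences, all in the lower direction, which was also the more frequent one over all clusters (2.38 percent lower against 1.27 percent higher). Of 16 genes of insulin and glucose response 2 were lower at p under 0.05. The insulin receptor *INSR* had 8.70 to 8.90 (median 8.84) against 8.78 to 9.19 (median 8.99), and all 8 *HMGCS1*-higher cows were below the lower-class mean of their own group (log2 difference -0.18, SE 0.07, exact permutation p = 0.00327). *IGFBP1*, an IGF-binding protein that insulin represses, had 9.83 to 11.49 (median 10.51) against 9.59 to 11.99 (median 11.34). It was lower by 0.58 on average with a standard error of 0.27, and the exact permutation p was 0.0918. *IGFBP1* was also the only one of 12 genes of the GH-IGF axis with p under 0.05, and *IGF1* had a log2 difference of 0.44 (SE 0.26, exact permutation p = 0.172).

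Of 20 acute phase genes 2 were lower at p under 0.05 (2.38 percent of all clusters). The list mixes positive acute phase proteins, such as *HP*, with negative ones, such as *ALB* and *RBP4*. A direction shared over the list is therefore not a direction of the acute phase response. Over all cows 4 of the 20 had a positive difference (43.9 percent of all clusters), with a median log2 difference of -0.10. Positive differences were found for 6 of 20 in the FGF21 high group (48.7 percent of all clusters) and 3 of 20 in the FGF21 low group (42.1 percent). *LBP*, which binds bacterial lipopolysaccharide, had 10.06 to 12.08 (median 10.75) in the *HMGCS1*-higher and 10.69 to 12.25 (median 11.85) in the *HMGCS1*-lower livers. The low values were mostly those of *HMGCS1*-higher cows of the FGF21 low group, so that the difference was -0.94 there and -0.32 in the FGF21 high group (over all cows -0.63, SE 0.21, exact permutation p = 0.029). The protease inhibitor *SERPINA3* had a log2 difference of -0.28. Haptoglobin, *HP*, spread too widely to separate the classes, with 6.74 to 12.75 (median 10.41) against 9.05 to 12.64 (median 12.01) and a log2 difference of -1.43 with a standard error of 0.81 (exact permutation p = 0.17).

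Genes of the stress programmes had p above 0.05. *FGF21*, the hormone by which the cows had been selected, had a log2 difference of -0.20 (SE 0.27), the chaperone *HSPA5* 0.11 (SE 0.25), the metallothionein *MT1A* -0.10 (SE 0.45) and the interferon-stimulated *ISG15* -0.29 (SE 0.35). The values of *HSPA5* and *MT1A* combined opposite directions. *HSPA5* was -0.308 among FGF21 high and positive among FGF21 low cows, and *MT1A* was 0.376 among FGF21 low and negative among FGF21 high cows. Leaving out 1 cow each moved *FGF21* between -0.392 and -0.00254 (without FGF21 high replicate 7 or 1) and *HSPA5* between 0.00156 and 0.33 (without FGF21 low replicate 1 or FGF21 high replicate 5). The value of *ISG15* rested on FGF21 low replicate 2 and was 0.115 without this cow. Of 19 genes of protein folding in the endoplasmic reticulum, 13 ATF4 targets, 18 interferon-stimulated genes, 9 genes of the urea cycle and 17 of the cell cycle, 0 had p under 0.05. The share over all clusters was only 3.65 percent. Of 7 genes of the metallothionein and zinc list 1 was lower, the transporter *SLC39A14* (-0.21).

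Of 89 markers of cells other than hepatocytes, 2 were higher and 3 lower at p under 0.05, close to the 1.27 and 2.38 percent of all clusters. All 9 endothelial markers had a positive difference (43.9 percent of all clusters, median of the markers 0.11), of which 0 passed p under 0.05. *COL1A2* of stellate cells (0.18) was among the higher ones, and *CD4* of the T cell list (-0.17), the globin *HBA* of red cells (-0.47) and *ADIPOQ* of adipocytes (-0.22) were lower. *HBA* ran from 5.84 to 6.54 (median 6.30) against 6.08 to 7.11 (median 6.81). The 7 erythroid markers together had a mean log2 signal of 4.69 to 5.04 in the *HMGCS1*-higher and 4.92 to 5.14 in the *HMGCS1*-lower livers, which overlapped, and 1 of the 7 passed p under 0.05. The part of blood in the other differences was not tested.

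Over all clusters, 97 were higher at p under 0.05 and above 1.2-fold, including the sterol and fatty acid genes, and 157 (0.769 percent) were lower. This split depended on the scaling, with 128 higher and 112 lower after quantile normalization was applied again and 116 and 130 after each array's median was subtracted. The lower clusters were mostly weak, with a median signal of 5.14 against 6.72 for the higher and 6.28 for all clusters. Outside the lists, *CSAD*, which makes hypotaurine on the way to taurine, had the smallest p after the microRNA transcript *MIR2329-1*. Its signals were 7.99 to 8.63 (median 8.41) in the *HMGCS1*-higher and 7.44 to 8.29 (median 7.75) in the *HMGCS1*-lower livers. FGF21 high replicate 1 was the one *HMGCS1*-lower cow above 8.02, and the log2 difference was 0.57 (SE 0.11, exact permutation p = 0.00122).

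Others belonged to the 10 higher clusters outside the lists with the smallest p above 1.2-fold. They were *RDH11*, a retinol dehydrogenase (0.36), the kinase *MAPK6* (0.49), *MDM4*, a negative regulator of p53 (0.33), *PHAF1* (0.33) and *ODAD2* (0.38). The rest of the 10 had low signals. *MIR2329-1*, for example, had a log2 difference of 0.62 at a mean signal of 2.78.

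Among the lower ones, *AKR1B10*, an aldo-keto reductase of retinal and lipid aldehydes, had the largest difference. It ran from 4.29 to 7.62 (median 4.89) in the *HMGCS1*-higher and from 4.59 to 9.44 (median 8.13) in the *HMGCS1*-lower livers. In the FGF21 low group all 4 *HMGCS1*-lower cows were above the other 4, at 7.87 to 8.85 against 4.29 to 6.70, whereas in the FGF21 high group the classes overlapped. The log2 difference was -2.20 with a standard error of 0.63 (exact permutation p = 0.0147), and it was -3.28 in the FGF21 low and -1.13 in the FGF21 high group. The ephrin *EFNA1* (-0.29), the glucagon-like peptide receptor *GLP1R* (-0.33) and *HIF3A* (-0.30) were lower in 8 of 8 *HMGCS1*-higher cows than the lower-class mean of their own group. These genes were picked by a small p on the same values, so this count is no separate support.

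**Figure D5:**
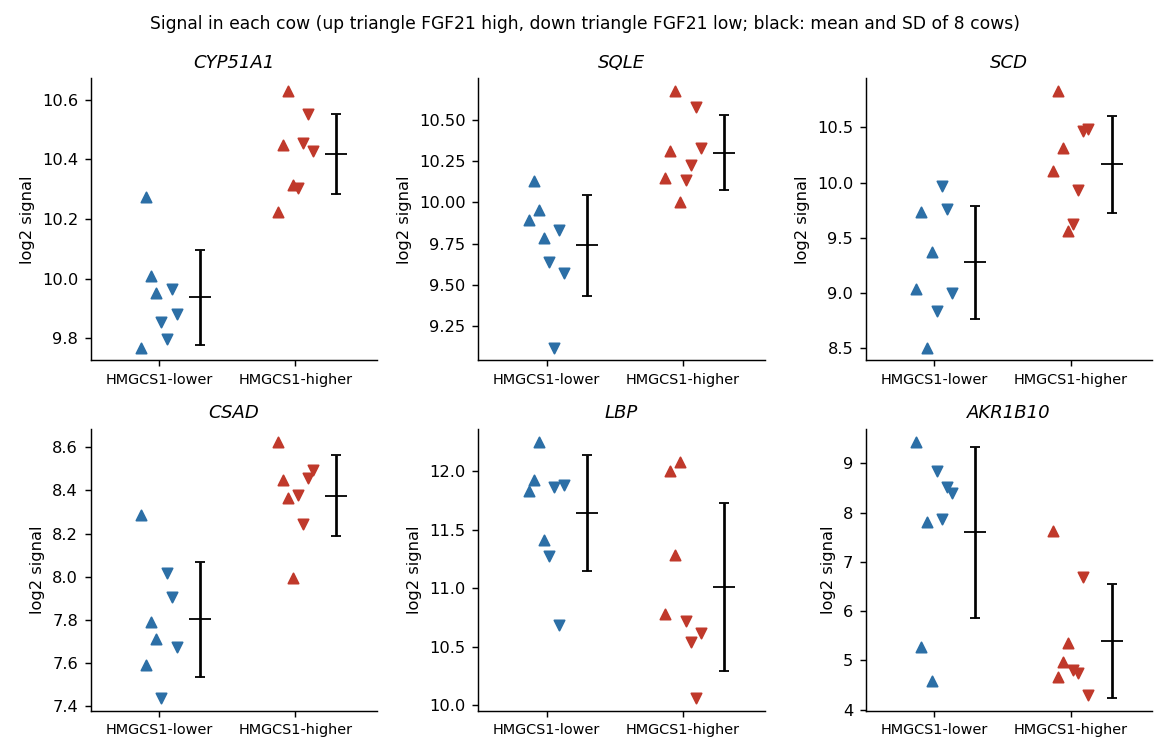
Log2 signal (y axes, each with its own range) of 6 genes in each cow by *HMGCS1* class; upward triangles are FGF21 high and downward triangles FGF21 low cows, and the black bar is the mean with the SD of 8 cows. *CYP51A1*, *SQLE*, *SCD* and *CSAD* lie higher on the right of their panels with little or some overlap, and *LBP* and *AKR1B10* lie lower on average with wide overlap.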

How the data were processed

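Liver RNA of 16 cows was measured on Affymetrix arrays. The authors' service provider made the deposited log2 signals by RMA with Affymetrix Expression Console 1.4 (background correction, quantile normalization between arrays, probe summary). The signals carry the label SST-RMA, a form of RMA with a signal space transformation. The effect of this step on fold changes was not examined. The authors also deposited these signals rounded to 2 decimals (largest difference 0.005), and their own group means, ratios, fold changes and p-values, which were not used. Read depth does not apply to arrays; the precision is limited by their number. The labels give the RNA integrity over all samples only. The study reports some RNA degradation, which by its account can lower the sensitivity and specificity of arrays. It held the integrity to be sufficient for hybridization.

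Of 20421 clusters, the 20420 other than *HMGCS1* were fitted without a filter in R 4.3.3 with limma 3.58.1 (lmFit and eBayes, FGF21 group and *HMGCS1* class as terms), and Benjamini-Hochberg adjusted p-values were held against 0.05. The study's criteria (fold change above 1.2, p under 0.05) were applied to limma's p. Single genes were also tested by an exact two-sided permutation of the classes within the FGF21 groups. In the methods' t-test, run on values with the group means removed, the degrees of freedom were not reduced for the group. Tables and plots used Python 3.11.15 with matplotlib 3.10.9, scipy 1.17.1, pandas 2.3.3 and numpy 2.4.6. The code was tested on simulated data.

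The classes, the 33 gene lists (21 pathways, 12 marker lists; 383 of 399 genes measured) and the tests were chosen with earlier results of these data known. The classes are defined from the same arrays as the genes compared, so anything that moves many signals of an array together is shared by both. The rule named all measured genes of sterol synthesis, up to 4 of each other list with the smallest p, the 10 in each direction outside the lists with the smallest p above 1.2-fold, and *FGF21*, *HSPA5*, *HP*, *MT1A*, *ISG15* and *IGF1*. For genes named by a small p, counts of cows above or below a class mean come from the same values and are no separate support. Unnamed loci and some other genes that the rule holds are not printed. A gene is represented by its cluster of highest mean signal. The RefSeq gene table held the accession of 14673 clusters and names 997 of them differently. The alternatives were another or no block, covariates, other tests, array weights, scaling, a signal filter, other class divisions and leaving out each cow. Promoter motifs were not analysed here.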

Additional observations from a re-analysis of the deposited data

Results flagged for a closer look

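In 7 of 150 combinations of a gene and an *HMGCS1* class of 8 cows, the signal of 1 cow lay farther from the rest of the class than the 95 percent value of Dixon's ratio allows, and chance gives about 5 percent of such cases. In the *HMGCS1*-lower class, FGF21 high replicate 6 had 7.34 for *PMVK* (the other cows 7.62 to 7.83) and 3.49 for *SLC35G2* (3.03 to 3.22). FGF21 high replicate 4 had 9.59 for *IGFBP1* (11.01 to 11.99). FGF21 low replicate 2 had 9.64 for *ISG15* (6.19 to 6.63). In the *HMGCS1*-higher class, FGF21 high replicate 5, the cow with the highest *HMGCS1*, had 8.505 for *ACLY* (7.47 to 7.88), and FGF21 low replicate 5 had 3.44 for *LDHC* (3.90 to 4.20). In the *HMGCS1*-lower class, FGF21 low replicate 8 had 4.35 for *IFN-TAU* (3.40 to 3.77).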

How the results depend on the processing

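Counts in this paragraph are given as clusters past the adjusted threshold, clusters past both criteria, and sterol and fatty acid genes higher at p under 0.05, which were 0, 254, 15 of 21 and 10 of 21. Fits without 1 cow gave 0 to 1 (*CYP51A1*, without FGF21 high replicate 4), 253 to 318, 13 to 17 and 8 to 11, with 0 to 1 sterol genes past adjustment. The count of clusters whose difference depended on the FGF21 group was 0 to 1 (1 without FGF21 high replicate 6 and 1 without FGF21 low replicate 6). The methods' t-test called 1 cluster after adjustment, *IDI1*. The top 3 against bottom 3 cows gave 4 adjusted calls, of which 1 was a sterol gene, and 513 past both criteria. *HMGCS1* as a continuous term gave 6, of which 5 were sterol genes, and 608, where the fold is per log2 unit of *HMGCS1*. The 10210 clusters above the median signal gave 94 past both criteria.

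The data gave no sign that replicate numbers pair the cows. The deviations of same-numbered cows correlated between -0.294 and 0.215 over the 8 numbers. Such correlations cannot show whether cows were paired by design. With the replicate block 610 clusters passed both criteria, 0 passed adjustment, and 12 sterol and 6 fatty acid genes were higher at p under 0.05; *LBR* was -0.108.

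Fits chosen after seeing the data gave 759 clusters past both criteria within the FGF21 low group, 738 within the FGF21 high group, with 6 sterol genes higher, and 570 without the 3 arrays of lowest weight, with 6 fatty acid genes higher. The other planned settings kept each of these counts within 1.5 times.

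Genes near 0 changed sign. *PMVK* was -0.0235 within the FGF21 low group. *LBR* was -0.0417 with continuous *HMGCS1*, -0.127 within the FGF21 low group and -0.0222 to 0.0941 without 1 cow each. *SREBF1* was -0.0347 within the FGF21 low group, -0.0651 without the 3 arrays and -0.0202 to 0.0989 without 1 cow each. *FGF21* was 0.0378 without the 3 arrays. *HSPA5* was -0.0715 with the top 3 against the bottom 3 and -0.308 within the FGF21 high group. *MT1A* was 0.0115 with the *FGF21* signal as a covariate, 0.376 within the FGF21 low group, 0.199 without the 3 arrays and -0.357 to 0.119 without 1 cow each. *ISG15* was 0.16 within the FGF21 high group, 0.144 without the 3 arrays and -0.387 to 0.115 without 1 cow each, the last without FGF21 low replicate 2. Without 1 cow each, *FGF21* was -0.392 to -0.00254, *HSPA5* 0.00156 to 0.33, *INSIG1* 0.232 to 0.469, *PMVK* 0.0339 to 0.148, *TM7SF2* 0.119 to 0.233, *HP* -1.91 to -0.924, *IGF1* 0.264 to 0.585 and *ACACA* 0.232 to 0.466. The cause of these changes was not tested. Promoter motifs were not run.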

Other observations

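Of 33 gene lists, 20 had median class differences of opposite sign in the FGF21 groups, fatty acid oxidation, ketone body synthesis and LXR targets among them. Some of these medians were near 0, such as -0.00281 and 0.00362 for NADPH supply. How many lists would differ in sign by chance was not tested. Of 19 genes of protein folding in the endoplasmic reticulum, 3 had a positive difference in the FGF21 high group (median -0.12). In the FGF21 low group 11 of them did (median 0.03). The shares over all clusters were 48.7 and 42.1 percent. Of 11 Kupffer cell and macrophage markers, 11 had a positive difference between *HMGCS1*-higher and *HMGCS1*-lower livers in the FGF21 high group (median log2 difference 0.24) and 1 in the FGF21 low group (median -0.18), where 48.7 and 42.1 percent of all clusters were positive. Of 18 interferon-stimulated genes, 16 were positive in the FGF21 high group (median 0.23) and 1 in the FGF21 low group (median -0.52). Without FGF21 low replicate 2, the cow with the highest *ISG15* signal, 10 of these 18 were positive in the FGF21 low group (median 0.02), while the macrophage markers gave 2 of 11 (median -0.16). In the test of the dependence on the FGF21 group over all clusters 0 clusters passed adjustment (limma; 1006 had p under 0.05 without it), these genes included.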
